A study of Homo sapiens
Mus musculus with 8 samples.

Results

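Human genes that carry and answer the signal of interleukin-2 (IL-2), 10 in all, were followed in 2 human T cell lines: the receptor chains IL2RA, IL2RB and IL2RG, the kinases JAK1 and JAK3, the transcription factors STAT5A and STAT5B, and the target genes CISH, SOCS1 and PIM1. The 10 genes were listed by name for their place in the pathway, with earlier results of these data known, out of 32738 human genes in the reference, and the rule for cells used none of them. The cells came from single-cell RNA-seq libraries of one kind of mixture, equal parts of the human lines Jurkat and TALL-104 and the mouse lines EL4 and IVA12. Jurkat is a CD4 T cell leukaemia line, and TALL-104 is a smaller CD8 cytotoxic T cell leukaemia line. By the study's methods TALL-104 was grown in medium with added IL-2 and Jurkat in another medium without it, so the line and its medium cannot be told apart, and no library tested the withdrawal of IL-2.

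The labels listed 8 libraries made with 3 Chromium kits of 10x Genomics, and 7 of them entered the comparisons. The 3′ v3 kit gave 4 libraries, the 5′ v1 kit gave 2 and the 3′ v2 kit gave 1. The 3′ kits count messenger RNA from its 3′ end and the 5′ kit from its 5′ end, as unique molecular identifiers (UMIs), each standing for 1 captured molecule. A cell was taken as human with at least 1000 UMIs and over 80% of them human, and as TALL-104 where 3 cytotoxic T cell genes, which are no members, together held at least 0.1% of its human UMIs. Cells under 0.02% were taken as Jurkat, and 1025 cells between the limits entered neither line. This gave 2746 TALL-104 cells (30 to 1101 a library) and 8074 Jurkat cells (288 to 3038 a library). Counts were summed per library and line, so that the 14 sums and not the cells were compared, and levels are given as CPM, the count of a gene per 1000000 human UMIs of its sum. The 7 libraries came from 4 mixings of the cells by the study's sample list: replicates 1 and 3 of 3′ v3 shared one, replicates 2 and 4 another, and both 5′ v1 libraries one of their own. The p-values therefore measure the spread between libraries, part of which is technical.

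As background, the IL-2 receptor has 3 chains. The alpha chain raises the affinity for IL-2, and the beta and common gamma chains carry the signal into the cell, where JAK1 sits on the beta chain and JAK3 on the gamma chain. The kinases phosphorylate STAT5A and STAT5B, which enter the nucleus and switch on genes such as CISH and SOCS1, whose products damp the same pathway, and PIM1, a kinase of cell survival. In activated and cytotoxic T cells this pathway drives growth and survival, and it is set off by protein changes that RNA counts do not show.

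Depth differed strongly between the lines. Library totals ran from 24790710 to 251164949 UMIs. TALL-104 cells had a median of 1800 to 2686 human UMIs in the libraries and Jurkat cells 9729.5 to 18448, and the sums held 92258 to 2245412 and 3390202 to 59284191 human UMIs. Mouse UMIs held a median of 0.921% to 15.3% of a TALL-104 cell, the highest in 3′ v3 replicate 3, and of 0.323% to 3.66% of a Jurkat cell. Markers that the rule had not used separated the lines: 9 cytotoxic genes summed to 2762 to 9144 CPM in TALL-104 and to 35.4 to 123 CPM in Jurkat. Of these, CD8B, the second chain of CD8, went against the label, with 10 UMIs in all TALL-104 cells and medians of 1.34 CPM there and 6.35 CPM in Jurkat. The 5 genes expected in Jurkat summed to 1208 to 2559 CPM there and to 43.4 to 198.8 CPM in TALL-104, although CD4 itself had a median of 1.18 CPM in Jurkat and 1 UMI in all TALL-104 cells. Of 8 markers of B, myeloid and red cells, 2 to 7 were at 0 in a sum. Together they came to 16.6 to 54.2 CPM in TALL-104 and 20.3 to 59.6 CPM in Jurkat. The B cell marker CD79A went against both labels and was counted in every sum. Its medians were 18.9 CPM in TALL-104 and 44.8 CPM in Jurkat, against 20.8 and 45.1 CPM for all 8. Libraries shared at most 33 cell barcodes with one another.

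All 10 members passed the filter on low counts. IL2RA, IL2RB and CISH, at no more than 0.885, 1.94 and 3.80 CPM in Jurkat, passed it through their TALL-104 sums. JAK3, SOCS1 and PIM1, at 2.28, 3.54 and 1.52 CPM in their lowest Jurkat library, also needed TALL-104 sums to pass. A gene low in both lines would not have been tested. Nor would one low in TALL-104 and too low in part of the Jurkat sums, as IL7R was (lowest Jurkat library 3.54 CPM). The count of members below is therefore not free of the filter. In an edgeR quasi-likelihood test with the library as a block, 8 of 10 were higher in TALL-104 and 1 of 10 was lower, while over all 10268 human genes tested 31.0% were higher and 34.1% were lower. The median log2 fold change was 4.30 over the members and −0.05 over all genes tested. The members higher in TALL-104 were the 3 receptor chains, both kinases and the 3 targets. For each of these the lowest TALL-104 library lay above the highest Jurkat library. The share of all genes tested with ranges apart was not computed, so this describes the members and does not set them apart. The 2 STAT5 genes were the exception.

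**Figure D1:**
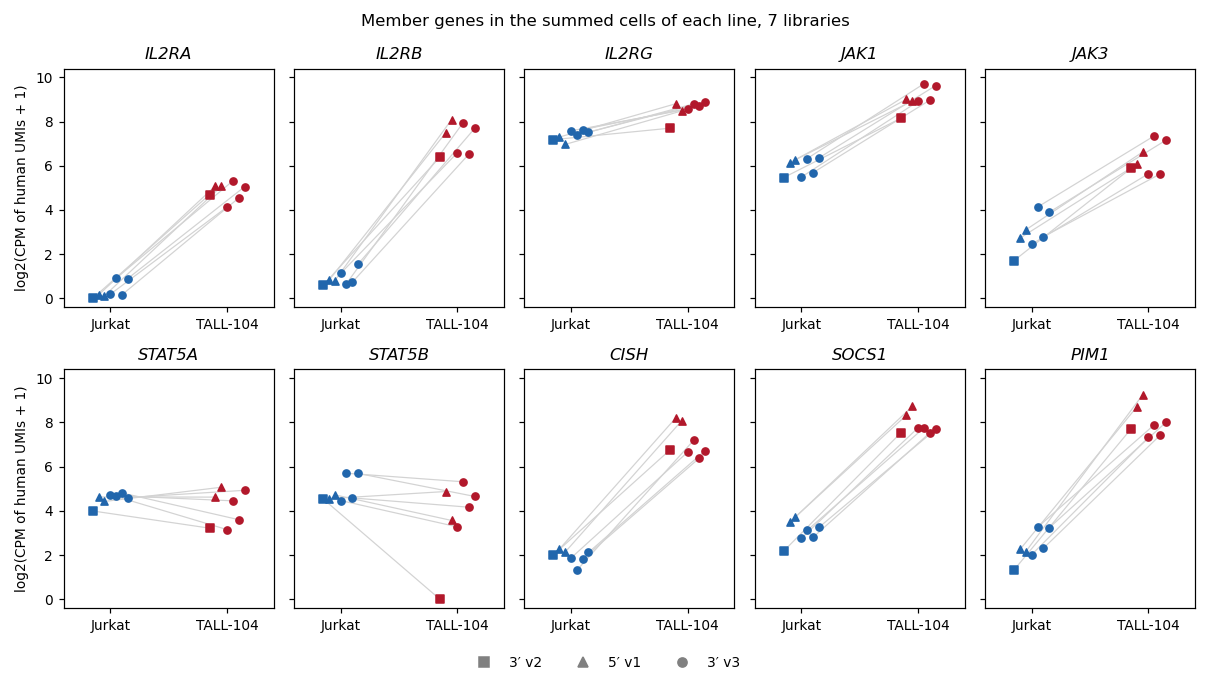
Each panel shows a member gene, with log2(CPM + 1) of the summed Jurkat cells (blue) and TALL-104 cells (red) of 7 libraries; grey lines join the sums of a library and symbols give the kit. The ranges of the lines are apart for all genes shown but STAT5A and STAT5B, and the share of such genes over all genes tested was not computed.

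Among the receptor chains, the largest differences were in the alpha and beta chains. IL2RA (ENSG00000134460), the alpha chain also known as CD25, was at 16.6, 32.1 and 38.8 CPM in the lowest, median and highest TALL-104 library. In Jurkat it was at 0, 0.118 and 0.885 CPM, with 26 UMIs in 8074 cells against 158 in 2746 TALL-104 cells. The fitted log2 fold change was 6.92 ± 0.37 (SE, n = 7 libraries; adjusted p = 1.39e-14). No UMI of IL2RA was found in Jurkat of 3′ v2, against 3 UMIs in TALL-104, and the exact 95% interval of that ratio starts at 13.5-fold. The ratio is loosely set in single libraries, because the Jurkat sums held 0 to 8 UMIs each. Its log2 value was also 6.94 and 7.56 in 3′ v3 replicates 1 and 3, against 5.45 and 5.22 in replicates 2 and 4.

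IL2RB (ENSG00000100385), the beta chain, which the IL-15 receptor shares, was at 82.9, 179 and 271 CPM in TALL-104. In Jurkat it was at 0.506, 0.743 and 1.94 CPM. The fitted log2 fold change was 7.34 ± 0.21 (SE, n = 7; adjusted p = 1.32e-19). This was the highest fitted value of the members, close to that of IL2RA (6.92 ± 0.37, SE), and rank 113 of 10268 genes tested.

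IL2RG (ENSG00000147168) encodes the common gamma chain, which the receptors of IL-4, IL-7, IL-9, IL-15 and IL-21 also use. Unlike the other chains it was well counted in both lines, at 207, 415 and 473 CPM in TALL-104 and 124, 165 and 198 CPM in Jurkat. The lines differed by a log2 fold change of 1.29 ± 0.16 (SE, n = 7; adjusted p = 7.32e-08), in the same direction in 7 of 7 libraries. The lowest TALL-104 value, in 3′ v2, stood close to the highest Jurkat value, in 3′ v3 replicate 3.

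Both kinases of the receptor were higher in TALL-104. JAK1 (ENSG00000162434) was at 282, 500.1 and 839 CPM in TALL-104 and at 43.3, 69.3 and 80.9 CPM in Jurkat. Its log2 fold change was 3.21 ± 0.17 (SE, n = 7; adjusted p = 1.62e-14), or 9.22-fold. JAK3 (ENSG00000105639), the kinase that binds the gamma chain, was at 48.5, 66.1 and 163 CPM in TALL-104 and at 2.28, 5.90 and 16.5 CPM in Jurkat. Its log2 fold change was 3.50 ± 0.15 (SE, n = 7; adjusted p = 1.61e-16), or 11.3-fold. The per-library log2 ratios spanned 2.67 to 3.45 for JAK1 and 3.04 to 4.67 for JAK3.

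The STAT5 genes, whose products carry the signal to the nucleus, showed no such difference. STAT5A (ENSG00000126561) was at 7.88, 20.9 and 32.5 CPM in TALL-104 and at 14.9, 23.8 and 27.0 CPM in Jurkat, with overlapping ranges and a higher TALL-104 value in 2 of 7 libraries. Its log2 fold change of −0.41 ± 0.23 (SE, n = 7) did not pass the test (adjusted p = 0.123). The sign turned with the libraries: it was −1.24 in the 3′ v3 replicates 1 and 3, and 0.15 in replicates 2 and 4.

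STAT5B (ENSG00000173757) was at 0, 16.9 and 38.8 CPM in TALL-104 and at 21.1, 23.0 and 51.0 CPM in Jurkat. The ranges overlapped, and TALL-104 was below Jurkat in 6 of 7 libraries. It was called lower, with a log2 fold change of −0.59 ± 0.20 (SE, n = 7; adjusted p = 0.0128). The call was lost without 3′ v3 replicate 4 (log2 fold change −0.45, adjusted p = 0.0815), without the library block (−0.52, adjusted p = 0.172), with the 4 mixings as blocks (−0.59, adjusted p = 0.0508) and with TALL-104 cells taken at 0.5% or more (−0.84, adjusted p = 0.0606). The limit of 0.5% left only 4 to 211 TALL-104 cells a library. In 5′ v1 alone the log2 fold change of STAT5B was −0.05 (adjusted p = 0.965). No UMI was found in the 41 TALL-104 cells of 3′ v2, whose limit for a count of 0, 24.9 CPM, lies above the Jurkat level of 22.3 CPM there, so a difference was not detectable in that library. The values of both genes in TALL-104 rest on few molecules, 102 UMIs for STAT5A and 118 for STAT5B. Mouse cells of the same libraries also held human UMIs, and their source (free RNA, doublets or misassigned reads) was not separated. Scaled to the number of TALL-104 cells these came to 29.3 UMIs of STAT5A and 35.4 of STAT5B (28.8% and 30.0% of the counts). From mouse cells with over 95% mouse UMIs they came to 23.4 and 27.1 UMIs (23.0% for each gene). The 2 genes are close paralogs, and how reads were shared between them could not be checked from the counts.

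The 3 target genes were far higher in TALL-104. CISH (ENSG00000114737), an inhibitor that STAT5 induces and that binds the activated receptor, was at 82.8, 108 and 297 CPM in TALL-104 and at 1.47, 3.04 and 3.80 CPM in Jurkat. Its log2 fold change was 5.65 ± 0.19 (SE, n = 7; adjusted p = 7.95e-19), or 50.1-fold. SOCS1 (ENSG00000185338), which blocks the JAK kinases, was at 182, 215 and 423 CPM in TALL-104 and at 3.54, 7.67 and 12.2 CPM in Jurkat. Its log2 fold change was 5.09 ± 0.16 (SE, n = 7; adjusted p = 2.27e-19), or 34.0-fold.

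PIM1 (ENSG00000137193), a serine/threonine kinase that promotes survival, was at 159, 237 and 607 CPM in TALL-104 and at 1.52, 3.76 and 8.55 CPM in Jurkat. Its log2 fold change was 5.97 ± 0.24 (SE, n = 7; adjusted p = 2.97e-17), or 62.6-fold. For all 3 targets the highest TALL-104 library was of 5′ v1, and the ranges of the lines were far apart.

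**Figure D2:**
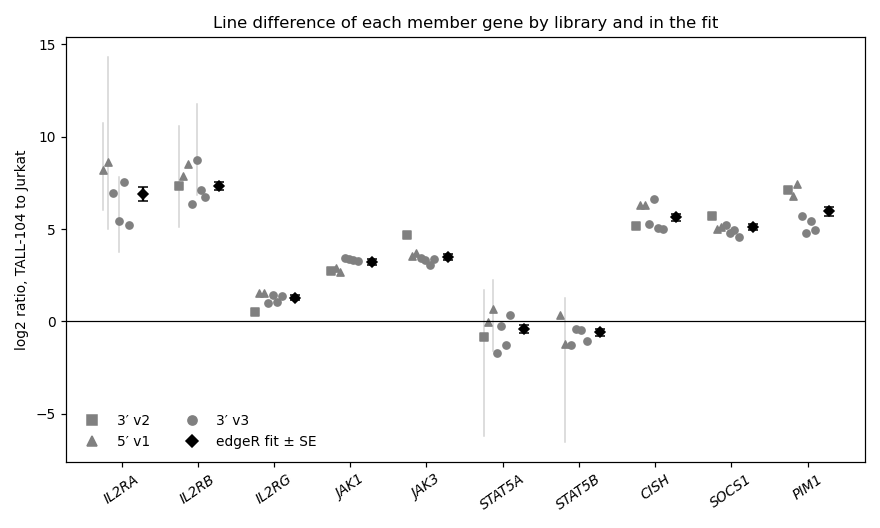
The y axis gives the log2 ratio of CPM in TALL-104 to CPM in Jurkat, for each library with counts in both lines (grey; symbols give the kit) and as fitted by edgeR (black, ± SE). Light bars are exact 95% intervals of counting error, drawn where a line had 3 or fewer UMIs. The library ratios of STAT5A lie on both sides of 0 and those of STAT5B mostly below it, while those of the 8 other genes are all above it.

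The level of free human RNA was estimated from the human UMIs found in mouse cells, scaled to the number of Jurkat cells. Doublets of a mouse and a human cell and reads set to the wrong species can also count in it. These sources were not separated. The estimate was a larger part of the lowest Jurkat counts. For IL2RB this gave 65.9 UMIs against the 125 counted in Jurkat (52.7%), and 45.1 UMIs (36.1%) from mouse cells with over 95% mouse UMIs. The level differed between libraries. In 3′ v3 replicate 2 the Jurkat count of 2 UMIs was below it by both measures, and in replicate 4 the 18 UMIs stood against 31.3 by the first and 13.5 by the second. In the 5′ v1 libraries the 20 and 9 UMIs of Jurkat stood against 0.552 and 0. For IL2RA the measures gave 9.83 and 2.88 of 26 UMIs (37.8% and 11.1%). They gave 13.6% and 6.94% for CISH, 13.9% and 7.52% for PIM1, 8.59% and 6.78% for JAK3 and 6.09% and 2.90% for SOCS1, with smaller shares for the other members. In TALL-104 the first measure was from 2.58% for SOCS1 to 7.99% for IL2RG, outside the STAT5 genes. With free RNA subtracted by either measure, the 8 members stayed higher in TALL-104.

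Counted per cell instead of as a share of UMIs, the ratios of TALL-104 to Jurkat were lower for all 10 members, since a TALL-104 cell yielded fewer UMIs. IL2RB was at 186, 508 and 833 UMIs per 1000 TALL-104 cells and 6.87, 14.1 and 22.7 per 1000 Jurkat cells, still 30.2-fold apart (mean over libraries). For IL2RA the per-cell ratio was 20.1-fold, for PIM1 10.7-fold, for CISH 8.33-fold and for SOCS1 5.45-fold, in each case with TALL-104 higher in 7 of 7 libraries.

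For the kinases and the gamma chain the scale mattered more. JAK1 was at 829, 1500 and 2303 UMIs per 1000 TALL-104 cells and 594, 924 and 1454 per 1000 Jurkat cells, a log2 ratio of 0.50 ± 0.54 (SD, n = 7). The ranges overlapped over libraries, and TALL-104 was higher within 7 of 7. JAK3 had a log2 ratio of 0.97 ± 0.86 (SD, n = 7) and was higher in TALL-104 in 6 of 7 libraries. IL2RG was lower per cell in TALL-104 in 7 of 7 libraries, at 610, 1100 and 1357 against 1921, 2360 and 3869 UMIs per 1000 cells (log2 ratio −1.40 ± 0.67, SD, n = 7). STAT5A and STAT5B were lower still, with log2 ratios of −3.04 ± 1.26 (SD, n = 7) and −3.35 ± 0.87 (SD, n = 6). Whether TALL-104 cells hold less RNA or lost more of it in capture cannot be told apart here.

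**Figure D3:**
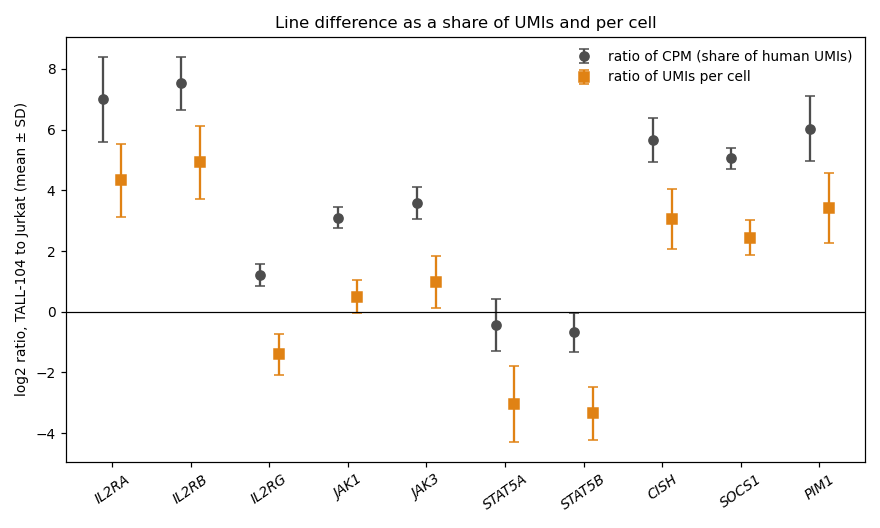
The y axis gives the log2 ratio of TALL-104 to Jurkat, mean ± SD over the libraries with counts in both lines (7, or 6 for IL2RA and STAT5B), as a ratio of CPM (circles) and of UMIs per cell (squares). IL2RG is above 0 on the first scale and below it on the second.

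The share of cells with a UMI was compared after each cell was thinned at random to 1000 UMIs, since deeper cells show more genes. This left 2715 TALL-104 and 8050 Jurkat cells. IL2RB was seen in 9.26%, 14.7% and 20.9% of TALL-104 cells in the lowest, median and highest library, in 0% to 0.567% of Jurkat cells and in 0% to 0.0818% of mouse cells, which should lack it. IL2RA was seen in 0% to 4.30% of TALL-104 cells after thinning and in 3.23% to 10.0% before it. The thinned share was 0 of 41 cells in 3′ v2 and 0 of 30 in 5′ v1 replicate 2, which at this depth allows up to 7.32% and 10.0%. The alpha chain was found in few single cells of either line at this depth.

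JAK1 was the member with the highest median share of TALL-104 cells, at 22.0%, 39.6% and 59.4% in the lowest, median and highest library, against 3.82%, 5.95% and 8.62% of Jurkat cells. PIM1 was seen in 16.1% to 40.0% of TALL-104 cells and 0.157% to 1.72% of Jurkat cells. SOCS1 was seen in 16.1% to 30.0% against 0.347% to 1.13%, and CISH in 8.43% to 26.7% against 0% to 0.680%. For these members and IL2RB the shares of TALL-104 and Jurkat cells did not overlap between libraries, also with another random seed for the thinning. Only the members were thinned, so no value over all genes stands beside this. Single shares in the smallest libraries moved several-fold with the seed: IL2RB went from 14.6% to 2.44% of the 41 TALL-104 cells of 3′ v2, and CISH from 26.7% to 6.67% of the 30 of 5′ v1 replicate 2. STAT5A was seen in 0% to 2.65% of TALL-104 cells and 0% to 2.65% of Jurkat cells, so no difference was detectable. Without thinning, IL2RG turned, with 60.0% of TALL-104 and 80.7% of Jurkat cells in the median library, against 34.6% and 15.9% after thinning.

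**Figure D4:**
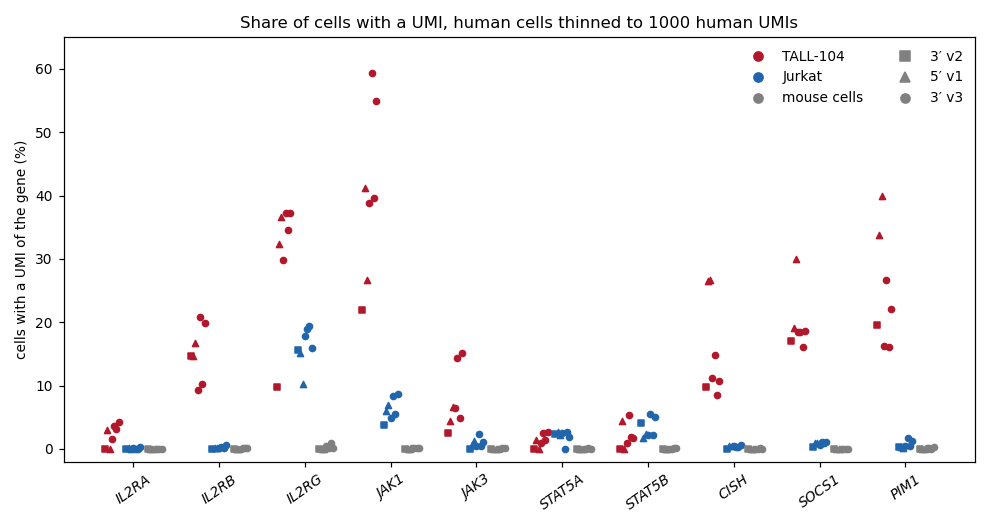
The y axis gives the percentage of cells with at least 1 UMI of the gene after thinning to 1000 UMIs, for TALL-104 (red), Jurkat (blue) and mouse cells (grey) in each of 7 libraries; symbols give the kit. JAK1, PIM1 and IL2RG reach the highest shares in TALL-104, and mouse cells stay under 1%.

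Whether the line difference depended on the end of the transcript that is counted was asked by a line by kit term in edgeR, over 4 libraries of 3′ v3 and 2 of 5′ v1. PIM1 alone of the 10 members was called, against 1.28% of 10516 genes tested. Its line difference was smaller in 3′ v3, with a log2 value of 3′ v3 minus 5′ v1 of −1.56 ± 0.32 (SE; adjusted p = 0.0242), where the median of all genes tested was 0.27. JAK1, next by p and not by size, was at 0.78 ± 0.22 (SE) and did not pass (adjusted p = 0.092). PIM1 averaged 206 ± 47.9 CPM (SD) over the 4 TALL-104 sums of 3′ v3 and 511 ± 135 CPM (SD) over the 2 of 5′ v1. The Jurkat means were 5.98 ± 2.90 and 3.61 ± 0.209 CPM. The 3′ v2 library, which also counts the 3′ end, was left out of this term. Its PIM1 log2 ratio of TALL-104 to Jurkat was 7.09, against 4.79 to 5.71 in 3′ v3 and 6.79 and 7.45 in 5′ v1. With TALL-104 cells taken at 0.5% or more, 24 and 11 in the 5′ v1 libraries, the PIM1 value of the line by kit term shrank to −0.38 (adjusted p = 0.838). The call was also lost without 5′ v1 replicate 1 (−1.88, adjusted p = 0.366) or replicate 2 (−1.31, adjusted p = 0.290), fits in which the lone 5′ v1 library is assumed to vary like those of 3′ v3. It was lost with free RNA subtracted (−1.19, adjusted p = 0.243) and with the Jurkat sums thinned to the TALL-104 totals (−2.22, adjusted p = 0.51). Both 5′ v1 libraries are of 1 mixing, so kit and mixing cannot be told apart. The split of calls over all genes hung on the scaling, 72 higher and 63 lower with TMM scaling against 32 and 124 with RLE scaling.

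CISH and SOCS1 had higher levels with 5′ v1 in both lines. In TALL-104, CISH averaged 108 ± 26.2 CPM over the 4 libraries of 3′ v3 and 284 ± 18.7 CPM over the 2 of 5′ v1 (SD). In Jurkat it was at 1.47 to 3.34 CPM and at 3.38 to 3.80 CPM. SOCS1 was at 205 ± 15.1 and 372 ± 71.9 CPM in TALL-104 and at 6.97 ± 1.34 and 11.2 ± 1.44 CPM in Jurkat. Neither gene overlapped between the kits in either line, though CISH in Jurkat nearly did, and their line differences were not called different (adjusted p = 0.21 for CISH and 0.874 for SOCS1). Each mixing was run on 1 kit, so the levels too cannot be set down to the kit. The share of all genes with levels apart between the kits was not computed.

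Within 3′ v3, the 2 mixings stood apart in the levels of most members. IL2RB and CISH in Jurkat and SOCS1 in TALL-104 overlapped between them. With 2 libraries against 2, levels can stand apart by chance. The share of all genes that did so was not computed, so this is no result about the members. JAK3 in TALL-104 was at 48.9 and 48.5 CPM in replicates 1 and 3 and at 163 and 142 CPM in replicates 2 and 4, and in Jurkat at 4.46 and 5.90 CPM against 16.5 and 13.9 CPM. The ratio of the means was 3.13 in TALL-104 and 2.93 in Jurkat. JAK1 showed ratios of 1.66 and 1.70, and STAT5B ratios of 2.46 and 2.31, so the line difference of these genes moved less than their levels. IL2RA was 1.83-fold higher in replicates 2 and 4 in TALL-104 and 6.89-fold in Jurkat, the latter from 3 to 8 UMIs a sum. IL2RB was 2.43-fold higher in replicates 2 and 4 in TALL-104. STAT5A was 2.65-fold higher there in TALL-104 and at a ratio of 0.914 in Jurkat. The Jurkat cells of replicates 2 and 4 also had a higher median mitochondrial share, 10.2% and 10.6% against 6.34% and 4.88% in replicates 1 and 3, and fewer UMIs a cell. The TALL-104 cells of replicates 2 and 4 had a higher mitochondrial share too, 9.46% and 10.1% against 8.34% and 5.54%, but more UMIs a cell, with medians of 2566.5 and 2236.5 against 1800 and 1804. The part of this in the levels was not tested, and each mixing is a single one, so these are descriptions.

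The rest of the pathway was read from lists of genes. Of 5 other receptor chains that pair with the common gamma chain, 2 passed the filter and both were higher in TALL-104, IL4R by 3.55 ± 0.21 and IL9R by 2.65 ± 0.15 (log2 fold change ± SE). IL7R, the chain for IL-7, was not tested, with 4 UMIs in TALL-104 and 1399 in Jurkat (medians of 0 and 9.54 CPM). IL15RA, also not tested, had medians of 8.03 and 0.793 CPM from 38 and 138 UMIs, higher in TALL-104 in 7 of 7 libraries, and IL21R 0.445 and 0.304 CPM from 7 and 59 UMIs. None of the 6 cytokines of the family was tested: IL7, IL9 and IL21 had no UMI in either line, and IL2 itself had 3 UMIs in TALL-104 and 11 in Jurkat.

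Over all genes tested, 31.0% were higher and 34.1% lower in TALL-104, and the counts of the lists stand beside these shares. Of 7 other JAK and STAT genes, 6 were higher in TALL-104, none was lower and 1 was not called, with a median log2 fold change of 1.31. STAT4, which carries IL-12 signals, stood out at 5.02 ± 0.25 (log2 fold change ± SE), with medians of 64.6 CPM in TALL-104 and 2.56 CPM in Jurkat. STAT2 was at 1.47 ± 0.22 and JAK2 at 1.31 ± 0.27. STAT5A and STAT5B had the lowest log2 fold changes of the 7 STAT genes tested.

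Of 15 listed negative regulators other than CISH and SOCS1, 13 were tested, of which 5 were higher, 3 lower and 5 not called, with a median log2 fold change of 0.16, counts near the 31.0% higher and 34.1% lower over all genes tested. CBLB, a ubiquitin ligase that restrains T cell activation, was higher by 3.66 ± 0.17, and the phosphatases PTPN11 and PTPN2 were lower, at −0.72 ± 0.17 and −0.49 ± 0.19 (log2 fold change ± SE).

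Of 16 further genes tied to IL-2 or STAT5, 13 were tested, and 10 were higher, 1 lower and 2 not called, with a median log2 fold change of 2.73 (31.0% higher and 34.1% lower over all genes). TNFRSF18, also called GITR, led at 8.23 ± 0.40, with 199 UMIs in TALL-104 and 10 in Jurkat. Its Jurkat count was 0 in 4 of 7 libraries, so the size of this difference is loosely set. The cytotoxic genes GZMB and PRF1, which are also on the list of line markers, were higher by 6.95 ± 0.50 and 6.00 ± 0.18, and the cyclin CCND2 by 5.86 ± 0.27 (log2 fold change ± SE). MYC, named after its values were seen, was the gene that was lower, at −1.93 ± 0.17, with medians of 51.2 CPM in TALL-104 and 245 CPM in Jurkat. FOXP3 and IFNG were too low to test, with 4 and 13 UMIs in TALL-104.

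Of 19 genes of the RAS, PI3K and mTOR arms of the receptor, all tested, 9 were higher, 4 lower and 6 not called, with a median log2 fold change of 0.20 (31.0% higher and 34.1% lower over all genes). The leading genes were the exchange factor SOS1 at 4.83 ± 0.18, the adaptor GAB2 at 3.84 ± 0.35 and the kinase subunit PIK3CD at 3.53 ± 0.16 (log2 fold change ± SE). Among the genes lower in TALL-104, MAPK3 (−0.61), MTOR (−0.44) and AKT2 (−0.43) are named after their values were seen.

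**Figure D5:**
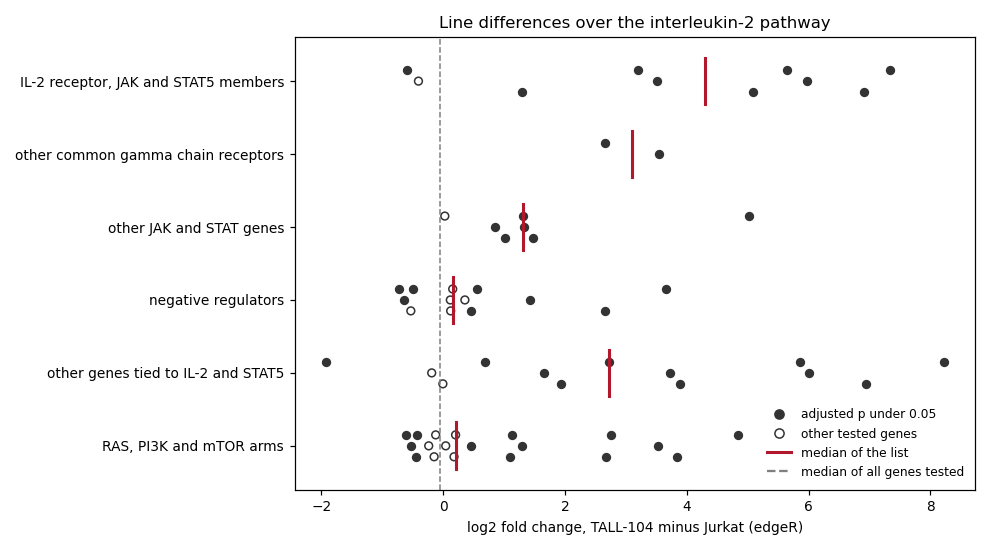
The x axis gives the edgeR log2 fold change of TALL-104 against Jurkat for the tested genes of 6 lists; filled points passed an adjusted p of 0.05, red bars are list medians and the dashed line is the median of all genes tested. The members and the further STAT5-tied genes have medians of 4.30 and 2.73, and the negative regulators and the RAS, PI3K and mTOR genes 0.16 and 0.20.

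The genes whose log2 CPM ran most like a member over the 14 sums were found by Pearson's r, as a description without a test, since all sums share the line difference and their libraries. For IL2RA they were ATP8B4, PYHIN1 and HCLS1 (r = 0.996, 0.996 and 0.994). For IL2RB they were CCDC50, NCR1 and EPHA4 (r = 0.997, 0.995 and 0.993), and for CISH they were RAC2, LBH and TMEM200A (r = 0.991, 0.990 and 0.988).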

How the data were processed

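The authors downsampled the reads of each library and deposited raw UMI counts per gene and barcode from Cell Ranger 3.0.2 on a combined hg19 and mm10 reference, without cell calling. Symbols and identifiers are those of the files, and no sequence or location was used here. The first 3′ v2 library was not analysed here. The kit came from the sample titles, and replicate numbers are in accession order and pair nothing. The mixings come from the study's sample list.

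Cells were taken by the rule in the text in Python 3.11.15, and no doublet caller was run. A doublet of both human lines can fall among TALL-104 or between the limits. It can also fall among Jurkat, where its TALL-104 cell held few UMIs of the 3 genes of the rule. The part of such doublets in the Jurkat counts was not tested. Counts were summed per library and line. edgeR 4.0.16 in R 4.3.3 was run with TMM scaling, filterByExpr by line, the library as a block and Benjamini-Hochberg adjustment over all human genes tested at a threshold of 0.05. SE is the log2 fold change over the root of F. The procedure was run on simulated counts at the depths of these sums. They had the same spread for all genes and no library or mixing effects, so they do not show how such effects bear on the p-values. Intervals are exact, with a confidence level of 95%, and, like the limit of 3 counts for a count of 0, cover counting error only. CPM values in the text are of human UMIs without TMM scaling, and only the correlations of genes used TMM-scaled log2 CPM. Thinning used a fixed seed, and mouse cells were thinned on all UMIs.

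All members are named, and of each further list up to 4 called genes with the largest change and the same direction in 7 of 7 libraries. A few genes that this rule or a count would name are not reported here. The members and lists were chosen with earlier results of these data known. Alternatives were another scaling (RLE), DESeq2 1.42.0, no filter, other limits for cells, thinned Jurkat sums, subtracted free RNA, no block, each kit alone and leaving out each library. The fits within each mixing of 3′ v3, the mixings as blocks and stricter mouse cells were added after seeing the data.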

Additional observations from a re-analysis of the deposited data

Results flagged for a closer look

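Of 40 sets of 4 values checked for a sample apart from the others in 3′ v3, 1 was marked by Dixon's test, which chance does in about 1 of 20 sets. It was the log2 ratio of CISH between TALL-104 and Jurkat, at 6.62 in replicate 2 and 5.25, 5.03 and 4.98 in replicates 1, 3 and 4. The Jurkat sum of replicate 2 held 5 UMIs of CISH.

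The line difference of PIM1 differed between the kits by a line by kit term, smaller in 3′ v3 than in 5′ v1 by a log2 value of −1.56 ± 0.32 (SE; adjusted p = 0.0242). In the libraries the log2 ratios were 5.71, 4.79, 5.44 and 4.93 in 3′ v3 and 6.79 and 7.45 in 5′ v1, so the kits did not overlap. The 3′ v3 ratios were higher in replicates 1 and 3, of one mixing, than in replicates 2 and 4, of another, both 5′ v1 libraries are of 1 mixing, and the call was lost under the settings given in the report. The value of 3′ v2, which also counts the 3′ end, was 7.09.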

How the results depend on the processing

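The 8 members higher in TALL-104 passed in every alternative that tested them. With TALL-104 cells at 0.5% or more, 8 members were tested, of which 6 were higher and 0 lower, and with over 95% human UMIs 7 were tested and 5 were higher. The first setting left 4 to 211 TALL-104 cells a library and the second 3 to 237. IL2RA and IL2RB fell below the filter in both settings, as did CISH in the second and IL2RA in 5′ v1 alone. RLE moved the median of all genes from −0.05 to −0.19 in the line comparison and from 0.27 to 0.07 in the kit comparison. The calls of the STAT5 genes moved. The count of members lower was 0 without the replicate block, with the 4 mixings as blocks and in 5′ v1 alone, where 3228 genes were called, and 2 with RLE, without the filter and in 3′ v3 replicates 1 and 3 alone. Without 3′ v3 replicate 4 the lower member was STAT5A (−0.76, adjusted p = 0.00866) in place of STAT5B.

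The kit comparison was less stable. It called 18 genes with thinned Jurkat sums, 5 with free RNA subtracted, 290 without the filter and 2 to 217 with 1 library left out. PIM1 was among 0 to 1 members called lower when 1 library was left out, and 0 were called with thinned sums, subtracted free RNA or TALL-104 cells at 0.5% or more. The last setting, with 24 and 11 TALL-104 cells in the 5′ v1 libraries, called JAK1 as 1 member higher (1.13, adjusted p = 0.0464). The share of cells with IL2RG differed by −25.0 points without thinning and by 14.9 points with it. No paired analysis across kits was possible because replicate numbers are in accession order. TALL-104 depth limits IL2RA, STAT5A and STAT5B in 3′ v2 and 5′ v1. The causes were not tested.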

Other observations

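The 1025 human cells between the limits of the lines, of which no comparison was made, held levels between those of the lines for most members. Over 7 libraries the lowest, median and highest values were 3.41, 13.6 and 62.2 CPM for IL2RB, 6.02, 12.2 and 62.2 CPM for CISH, 18.2, 19.5 and 37.2 CPM for SOCS1 and 78.4, 111 and 272 CPM for JAK1. STAT5A was at 12.4, 21.9 and 35.1 CPM, with the median within the range of either line.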
